A study of Mus musculus with 9 samples.

Results

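Replication-dependent histone genes encode the linker histone H1 and the core histones H2A, H2B, H3 and H4, which package newly copied DNA during S phase. They were examined here in the RNA of extracellular vesicles (EVs), small membrane particles released by cells. The members were all genes whose name in the array annotation begins with Hist1h, Hist2h, Hist3h or Hist4h. These were 48 genes, read by 52 probes, and each gene was represented by its brightest probe. They fell into 6 H1, 15 H2A, 11 H2B, 8 H3 and 8 H4 genes.

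EV RNA came from mouse embryonic fibroblasts (MEFs), primary connective tissue cells of the embryo, and 100 ng of total RNA per sample was labelled and hybridised to a 1-colour Agilent array. PBS-treated EVs (5 arrays) came from MEFs given phosphate-buffered saline, and control EVs (4 arrays) came from control MEFs. No transgene or plasmid is named for either group, and whether the PBS group was also pulsed electrically is not stated in the labels. Nor do they state that replicates were separate cultures, so the p-values reflect only how far these arrays scatter, which may be technical scatter. Of 11 fibroblast marker genes, 7 stood well above background on all 9 arrays and Thy1 did on none.

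Most vertebrate mRNAs end in a poly(A) tail, but the mRNAs of replication-dependent histones normally end just past a short stem-loop. The stem-loop binding protein SLBP holds this hairpin and takes part in the processing, translation and decay of these mRNAs, which are abundant in S phase and degraded when DNA synthesis stops. The labelling kit named in the study's methods primes on poly(A), a feature that most of these mRNAs are known to lack. What part this had in the levels below was not tested.

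The place of a probe on its transcript differed widely among the members, and the hairpin was a landmark for it. A 16-base hairpin with arms of 6 bases, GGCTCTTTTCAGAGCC, was found whole on 4 of the 52 member probes and on 4 of all 55681 probes on the array. Another 3 member probes held a variant of its loop or were cut off inside it. The windows of at most 30 bases around it are shown with the hairpin in capitals.
Hist1h2ab: gaaagttaaccaaaacaaaGGCTCTTTTCA
Hist1h2ae: CTTTTCAGAGCCattcacttaattcagtaa
Hist2h2aa1: taaaaaGGCTCTTTTCAGAGCCacccactg
Hist2h2bb: acccaaaaGGCTCTTTTCAGAGCCacttta
Hist1h3a: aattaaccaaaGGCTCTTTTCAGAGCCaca
Hist1h3g: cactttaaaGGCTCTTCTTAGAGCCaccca
Hist1h3i: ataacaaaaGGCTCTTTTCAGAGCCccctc

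These windows lie in H2A, H2B and H3 genes and differ mainly outside the hairpin. The loop of Hist1h3g is the only one among the whole hairpins with other letters. The probes of Hist1h2ae and Hist2h2aa1 reached 48 and 38 bases past the hairpin, whereas those of the other 5 genes reached at most 6 bases past it.

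Signal was read as log2 of the background-corrected intensity minus the array's 75th percentile over the probes that stood well above background on every array. A gene was tested if its probe was well above background, by the scanner software's own mark, on at least 4 arrays. On single arrays, 34 to 37 of the 48 histone genes were well above background in PBS-treated EVs and 32 to 35 in control EVs. For all probes on the array these shares were 29.6% to 34.5% in PBS-treated EVs and 22.6% to 27.9% in control EVs. In all, 28 histone genes were detected in this way on 9 arrays, 10 on some and 10 on none.

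Detection differed with the place of the probe. Of 29 genes whose probe lay before the hairpin, 21 were detected on all arrays, 5 on some and 3 on none. Of 7 genes with a probe on the hairpin, 3 were detected on all arrays, 3 on some and 1, Hist1h2ae, on none. Of 12 genes with a probe past it, 4 were detected on all arrays, 2 on some and 6 on none. The genes detected on all arrays by a probe past the hairpin were Hist1h1c, Hist1h2bc, Hist1h4i and Hist3h2a. A core histone probe was placed past the hairpin if it began at base 480 or later of its transcript and held no hairpin, and an H1 probe if it began at base 1000 or later. Both limits were chosen after the values were seen, and the counts carry no test. For 8 of these 12 probes the current RefSeq gene model (GRCm38.p6) is shorter than the position at which the probe begins, so these probes read sequence that the model does not hold.

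**Figure D1:**
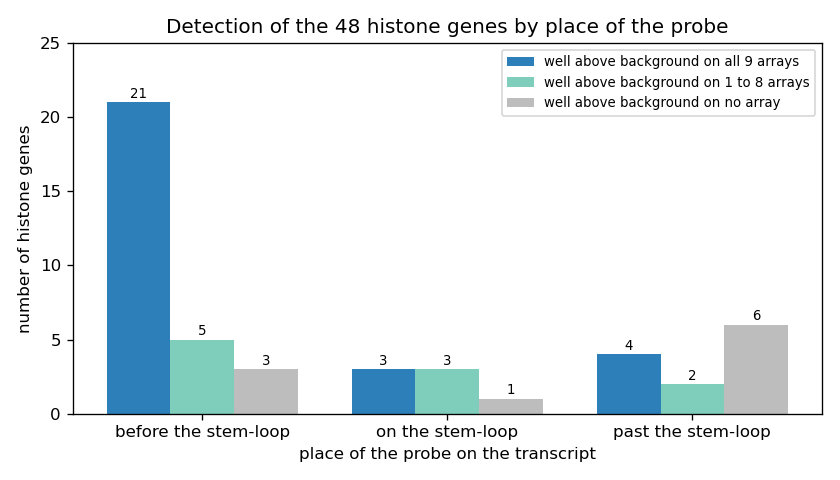
Number of histone genes (y axis) whose probe lay before, on or past the stem-loop (x axis), split by the number of arrays on which the probe stood well above background. Probes before the stem-loop were detected on all 9 arrays for 21 of 29 genes, and probes past it for 4 of 12.

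Of the 35 histone genes tested, 14 were higher in PBS-treated EVs, 3 were lower and 18 did not pass the test (limma, Benjamini-Hochberg adjusted p under 0.05 over all 14307 genes). Over all genes tested, 31.5% were higher and 20.7% were lower. The histone shares were 40.0% and 8.57%. The median difference over the tested histone genes was 0.25 on the log2 scale, against -0.02 over all genes tested. The groups did not overlap for 14 histone genes that were higher and 2 that were lower, and over all genes this was so for 29.4% and 17.6%. By type, 3 of 5 H1, 1 of 11 H2A, 3 of 4 H2B, 3 of 7 H3 and 4 of 8 H4 genes were higher, and the 3 lower genes were 2 of H3 and 1 of H4.

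The scaling bears on every direction given here. Scaled to spike-in RNAs added before labelling, the median difference of all genes was 1.23 and that of the histone genes 1.50, with 31 of 35 histone genes higher and none lower, where 61.8% of all genes were higher and 5.22% lower. This scaling shifts every gene by the same amount, so it leaves the gap of 0.27 between the histone median and that of all genes as it was. The gap was 0.61 with normexp background correction, 0.13 with quantile normalization, and 0.41 and 0.14 on slides 1 and 2 alone.

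**Figure D2:**
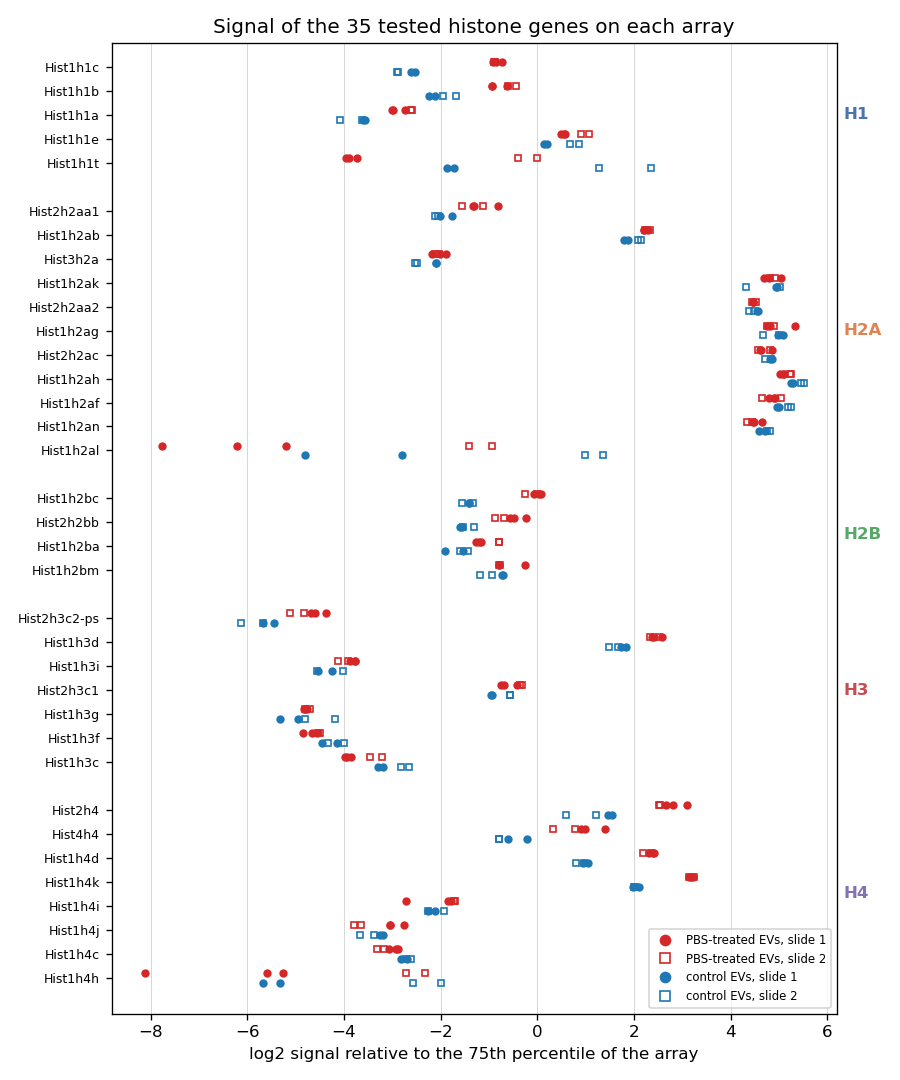
Signal in log2 units from the 75th percentile of its array (x axis) for each of the 35 tested histone genes (rows, by type) in PBS-treated EVs (red, upper) and control EVs (blue, lower), with filled circles for slide 1 and open squares for slide 2. Each gene has its own probe, so levels compare between arrays and not between genes. The arrays of Hist1h1c, Hist1h2bc, Hist1h4d and Hist1h4k separate by group, and those of Hist1h1t, Hist1h2al and Hist1h4h separate mainly by slide.

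Linker histone H1 binds the DNA between nucleosomes and compacts chromatin. The somatic H1 genes that rose were Hist1h1c, Hist1h1b and Hist1h1a. Hist1h1c read -0.85, -0.91, -0.72, -0.90 and -0.86 in PBS-treated EVs, against -2.52, -2.61, -2.88 and -2.90 in control EVs. Every PBS-treated array was above every control array, by a group difference of 1.88 ± 0.12 (SE) or 3.68-fold (adjusted p = 8.3e-06, limma). Its probe, at chr13:23832018-23832077 on mm9, began at base 1342 of the transcript, past the hairpin. The RefSeq gene model is 725 bases long, so this probe read sequence that the model does not hold.

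Hist1h1b read -0.94, -0.95, -0.63, -0.61 and -0.44 in PBS-treated EVs, against -2.25, -2.12, -1.69 and -1.95 in control EVs. The groups did not overlap, and the difference was 1.29 ± 0.17 (SE, adjusted p = 0.000282, limma). Hist1h1a averaged -2.79 ± 0.20 (SD, n = 5) in PBS-treated EVs and -3.72 ± 0.24 (SD, n = 4) in control EVs. Its difference was 0.93 ± 0.16 (SE, adjusted p = 0.0014, limma), but with normexp background correction it was 0.13 (adjusted p = 0.558). One of the 4 control arrays did not read it above background.

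Hist1h1e, the H1 gene of highest mean signal, averaged 0.72 ± 0.25 (SD, n = 5) in PBS-treated EVs and 0.47 ± 0.36 (SD, n = 4) in control EVs. The groups overlapped and the difference of 0.25 did not pass the test (95% interval -0.21 to 0.72, adjusted p = 0.318, limma). It read higher on slide 2 than on slide 1 in both groups, and with slide as a block the difference was 0.31 (adjusted p = 0.0241).

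Hist1h1t, the linker histone known from male germ cells, was named after its values were seen because of its spread. It read -3.96, -3.89, -3.74, -0.01 and -0.40 in PBS-treated EVs, against -1.72, -1.86, 2.36 and 1.27 in control EVs. The last 2 arrays of each group lay on slide 2, where both groups read higher. The difference of -2.41 did not pass the test over both slides (adjusted p = 0.142, limma), whereas it was -2.07 on slide 1 and -2.02 on slide 2, both past the threshold. Of 7 male germ cell markers, none was detected on every array and Dazl, Sycp3 and Tnp2 were detected on none, and their summed log2 level ran between -5.01 and -1.71 in PBS-treated EVs and between -3.23 and -0.74 in control EVs. The same shift was seen in a pair of other histone genes, chosen likewise: Hist1h2al (difference -3.00, not past the threshold) and Hist1h4h (difference -0.92, and 0.33 with spike-in scaling) also read over 2 log2 units higher on slide 2 in both groups, as did 12.4% of all genes tested. The other 32 tested histone genes shifted between slides by -0.76 to 0.64. With slide as a block, Hist1h1t (-2.05, adjusted p = 6.95e-05, limma) and Hist1h2al (-2.49, adjusted p = 0.00442) were lower, and Hist1h4h did not pass (-0.56, adjusted p = 0.387). Without both control arrays of slide 2, none of these 3 genes passed, but slide 2 then held PBS-treated arrays only. That fit had no slide term, so it cannot separate group from slide for genes that shift between slides.

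Of the 11 H2A genes tested, 1 rose and none fell, although Hist1h2al was lower with slide as a block. The gene that rose was Hist2h2aa1, with -1.32, -1.30, -0.81, -1.56 and -1.12 in PBS-treated EVs, against -2.01, -1.76, -2.12 and -2.05 in control EVs. The groups did not overlap, and the difference was 0.76 ± 0.17 (SE, adjusted p = 0.00492, limma). The probe of Hist2h2aa1 shares a run of at least 20 bases with 3 other member probes, so its value as a single gene is uncertain. Hist1h2ab read between 2.21 and 2.33 in PBS-treated EVs and between 1.80 and 2.14 in control EVs. Its groups did not overlap either, but the difference of 0.28 missed the threshold (95% interval 0.02 to 0.53, adjusted p = 0.0642, limma). It passed with slide as a block, at 0.29 (adjusted p = 0.0248), and in 10 other alternatives.

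A set of 7 H2A genes had probes so alike that each may bind the others' transcripts, and their values are uncertain as single genes. The probes read the end of the coding sequence, and stretches of 42 to 60 bases, aligned without gaps, matched at 68.9% to 95.8% of positions. Pairs with Hist2h2ac matched at 77.2% or less, a figure that allows for no missing bases, and all other pairs at 86.7% or more. The probes are shown with capitals for bases outside any run of 20 shared with another of the 7.
Hist1h2af: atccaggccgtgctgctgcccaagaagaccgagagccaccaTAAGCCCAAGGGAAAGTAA
Hist1h2ag: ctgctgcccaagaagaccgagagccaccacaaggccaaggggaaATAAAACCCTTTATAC
Hist1h2ah: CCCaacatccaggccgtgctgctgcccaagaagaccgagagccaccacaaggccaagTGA
Hist1h2ak: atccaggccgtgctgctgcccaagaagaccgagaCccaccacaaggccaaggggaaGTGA
Hist1h2an: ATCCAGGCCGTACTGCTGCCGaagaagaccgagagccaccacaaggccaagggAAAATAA
Hist2h2aa2: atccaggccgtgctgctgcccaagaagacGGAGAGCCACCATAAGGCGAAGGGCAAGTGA
Hist2h2ac: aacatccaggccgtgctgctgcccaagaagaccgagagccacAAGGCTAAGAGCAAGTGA

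The shared run also occurs on the probe of H2afj, a replacement H2A gene, for 5 of these 7 genes. All 7 read between 4.33 and 5.32 in PBS-treated EVs and between 4.32 and 5.51 in control EVs. Their differences lay between -0.24 and 0.04, none passed the test, and their 95% intervals reached from -0.52 to 0.43 at the widest. H2afj itself differed by -0.25 (adjusted p = 0.182, limma), so it too did not pass. Within the set, Hist1h2ah, the H2A gene of highest mean signal, read 5.11, 5.09, 5.02, 5.26 and 5.23 in PBS-treated EVs, against 5.29, 5.24, 5.46 and 5.51 in control EVs. Its difference was -0.23 ± 0.11 (SE, adjusted p = 0.115, limma), and that of Hist1h2an was -0.24 ± 0.11 (adjusted p = 0.0981). Both were positive with spike-in scaling, at 1.02 and 1.01.

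The annotation places the probe of Hist2h2aa2 (chr3:96049837-96049896, mm9) 112 bases from that of Hist2h2aa1 (chr3:96049949-96050008), on the same strand. Hist2h2aa1 rose by 0.76 on its hairpin probe, while Hist2h2aa2, read near the end of the coding sequence by one of the 7 alike probes, differed by -0.02 (95% interval -0.24 to 0.20).

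Among H2B genes, Hist1h2bc rose most. It read 0.08, 0.05, -0.06, -0.01 and -0.25 in PBS-treated EVs, against -1.42, -1.41, -1.56 and -1.33 in control EVs. The arrays separated fully, by 1.39 ± 0.11 (SE) or 2.62-fold (adjusted p = 2.59e-05, limma). Its probe, at chr13:23784254-23784313, lay past the hairpin, and its RefSeq gene model is 8282 bases long. Hist2h2bb read -0.56, -0.48, -0.23, -0.88 and -0.69 in PBS-treated EVs, against -1.57, -1.59, -1.32 and -1.53 in control EVs. It was read on the hairpin itself, did not overlap between groups, and differed by 0.93 ± 0.15 (SE, adjusted p = 0.000995, limma). The probe of Hist2h2bb shares a run of at least 20 bases with 3 other member probes, so its value as a single gene is uncertain.

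Hist1h2ba, a histone H2B known from testis, averaged -1.04 ± 0.23 (SD, n = 5) in PBS-treated EVs and -1.62 ± 0.20 (SD, n = 4) in control EVs. The difference of 0.57 passed the test (adjusted p = 0.0155, limma) but not with normexp background correction, where it was 0.33 (adjusted p = 0.225). Hist1h2bm, the other H2B gene tested, differed by 0.21 and was not called. The remaining 7 H2B genes were not tested: 5 were well above background on no array, Hist1h2bb was on 1 and Hist1h2be on 2. Of these 7, 5 were read past the hairpin.

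H3 genes moved both ways. Hist1h3d, which had both the smallest p and the highest mean signal of its type, read 2.38, 2.41, 2.58, 2.52 and 2.34 in PBS-treated EVs, against 1.84, 1.74, 1.49 and 1.67 in control EVs. Every PBS-treated array was higher, with a difference of 0.76 ± 0.12 (SE, adjusted p = 0.000676, limma). Hist2h3c2-ps was detected on all 5 PBS-treated arrays and on 1 of 4 control arrays. Its difference of 1.02 (adjusted p = 0.00216, limma) rests on dim control readings. With normexp background correction it was -0.40 (adjusted p = 0.132), where the median of all genes was -0.51.

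Hist1h3c was lower in PBS-treated EVs. It read -3.86, -3.94, -3.98, -3.46 and -3.21 in PBS-treated EVs, against -3.29, -3.20, -2.82 and -2.66 in control EVs. The groups overlapped by 1 array of each, and both read higher on slide 2. The difference was -0.70 ± 0.22 (SE, adjusted p = 0.0242, limma) and -0.68 and -0.59 within slides 1 and 2, both past the threshold. It did not pass without both control arrays of slide 2 (-0.45, adjusted p = 0.181), a fit leaving slide 2 only PBS-treated arrays. Nor did it pass without any one of 5 single arrays, and it was 0.55 with spike-in scaling. Hist1h3f and Hist1h3c share a run of 20 bases, and Hist1h3f, chosen after its value was seen, fell by 0.39 (adjusted p = 0.0408, limma) but was 0.86 with spike-in scaling. That call held in 7 of 24 alternatives and on neither slide alone (adjusted p = 0.0962 and 0.131). Hist1h3i, also chosen afterwards, rose by 0.44 (adjusted p = 0.0355), was -0.44 with normexp (adjusted p = 0.104), and kept its call in 10 of 24 alternatives. Its probe shares a run of at least 20 bases with 2 other member probes.

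H4 genes held some of the largest differences among the members. Hist1h4d read 2.31, 2.42, 2.39, 2.19 and 2.35 in PBS-treated EVs, against 0.94, 1.05, 0.81 and 0.97 in control EVs. The difference was 1.39 ± 0.11 (SE) or 2.62-fold (adjusted p = 1.83e-05, limma). The probe of Hist1h4d shares a run of at least 20 bases with 2 other member probes, so its value as a single gene is uncertain. Hist1h4k read 3.18, 3.13, 3.22, 3.14 and 3.24 in PBS-treated EVs, against 1.97 to 2.10 in the 4 control arrays. Both genes separated fully, and Hist1h4k differed by 1.16 ± 0.09 (SE, adjusted p = 2.41e-05, limma).

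Hist2h4 read 2.66, 2.81, 3.09, 2.51 and 2.55 in PBS-treated EVs, against 1.55, 1.47, 0.59 and 1.22 in control EVs, a difference of 1.52 ± 0.22 (SE, adjusted p = 0.000551, limma). Hist4h4, the single member on chromosome 6, was chosen after its value was seen and rose by 1.48 (adjusted p = 0.000668). Hist1h4c, chosen likewise, fell by 0.36 (adjusted p = 0.0374, limma) but was 0.89 with spike-in scaling. The value table gave 0.0080 (adjusted p = 0.976). Its call held in 11 of 25 alternatives, on slide 2 alone and not on slide 1 (adjusted p = 0.194).

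**Figure D3:**
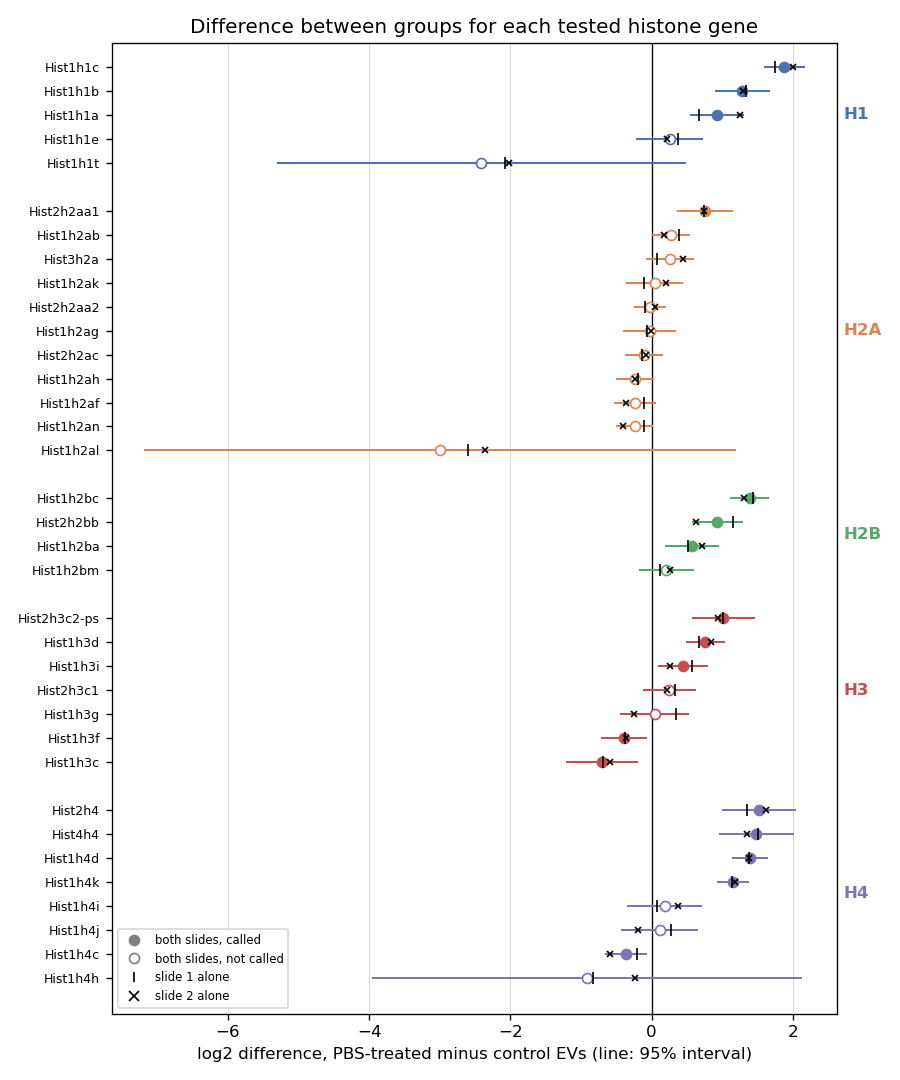
Log2 difference, PBS-treated minus control EVs (x axis), with its 95% interval for each tested histone gene (rows, by type), filled where called and open where not. A vertical tick and a cross give the difference within slide 1 and within slide 2. Hist1h1c has the highest difference at 1.88, and the 7 alike H2A probes lie between -0.24 and 0.04.

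The 4 genes with a second probe tested whether probes of a gene moved together. For each array the later probe minus the earlier one was taken, and the groups were compared with a two-sided exact permutation test over 126 splits, adjusted over the 4 genes. Being taken within each array, this change does not depend on the scaling. For Hist2h4 the probe at base 3 differed by -4.08 (adjusted p = 0.000149, limma), opposite to the probe at base 230, which is its brightest. The earlier probe read -6.80, -6.24, -5.60, -7.56 and -8.10 in PBS-treated EVs, against -2.82, -2.68, -2.83 and -2.78 in control EVs. It was detected on 2 of 5 PBS-treated arrays and on all 4 control arrays, so the size of its difference rests in part on readings not well above background. With 2 readings raised to the lowest signal well above background on their array, the difference was -3.39. The change between the probes was then 4.91, against 5.60 as measured (exact p = 0.00794 for each, the smallest possible here, adjusted p = 0.0159 as measured).

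For Hist1h4i the probe at base 23 differed by -0.96 and the brighter one at base 483 by 0.18, a change of 1.14 (exact p = 0.00794, adjusted p = 0.0159). The later Hist1h4i probe begins beyond the RefSeq gene model, which is 403 bases long. It also shares a run of at least 20 bases with a probe of Galns, a lysosomal sulfatase gene. Whether both Hist1h4i probes read the same transcript was not tested. In Hist1h4k the probes at bases 36 and 252 rose by 1.06 and 1.16, and the change of 0.10 did not pass (exact p = 0.46). In Hist1h2ak the probes at bases 0 and 333 differed by 0.25 and 0.04, and the change of -0.21 did not pass (exact p = 0.246).

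The earlier probes of Hist2h4 and Hist1h4i hold the start codon, in capitals, and are shown beside the later Hist2h4 probe because their differences run opposite to it. The Hist1h4h probe, whose arrays separate mainly by slide, also holds the start codon.
Hist2h4, base 3: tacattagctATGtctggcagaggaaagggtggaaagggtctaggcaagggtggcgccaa
Hist1h4i, base 23: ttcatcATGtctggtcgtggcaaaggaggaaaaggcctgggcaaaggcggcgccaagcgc
Hist2h4, base 230: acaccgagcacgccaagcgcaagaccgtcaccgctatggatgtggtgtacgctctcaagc

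Probes that began at the same base could also differ. Hist1h4c and the earlier Hist1h4k probe both began at base 36 and match at 52 of 60 bases, with the differing 8 in capitals.
Hist1h4c: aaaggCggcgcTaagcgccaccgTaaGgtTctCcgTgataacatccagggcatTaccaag
Hist1h4k: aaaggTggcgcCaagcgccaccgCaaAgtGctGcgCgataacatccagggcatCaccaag

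Hist1h4c fell by 0.36 whereas this Hist1h4k probe rose by 1.06, although transcripts this alike can bind both probes. Over the 10 H4 probes before the hairpin, which read 8 genes and share sequence, later probes had higher differences (Spearman 0.89, Pearson 0.60), a description made after the values were seen. Over all types, 7 tested member probes began within the first 30 bases, of which 5 had a difference below 0 and 3 were called lower (42.9%). The 5 included Hist1h2al and Hist1h4h, which shifted between slides, and the earlier Hist2h4 probe, detected on 2 of 5 PBS-treated arrays. Of the other 32 tested member probes, 9 had a difference below 0 and 2 were called lower. Among genes outside the histones with a RefSeq mRNA accession, 13 tested probes began that early. Of these, 5 had a difference below 0 and 1 was called lower (7.69%), with a median difference of 0.31. Of the 12048 later ones, 19.9% were called lower, with a median of 0.29.

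**Figure D4:**
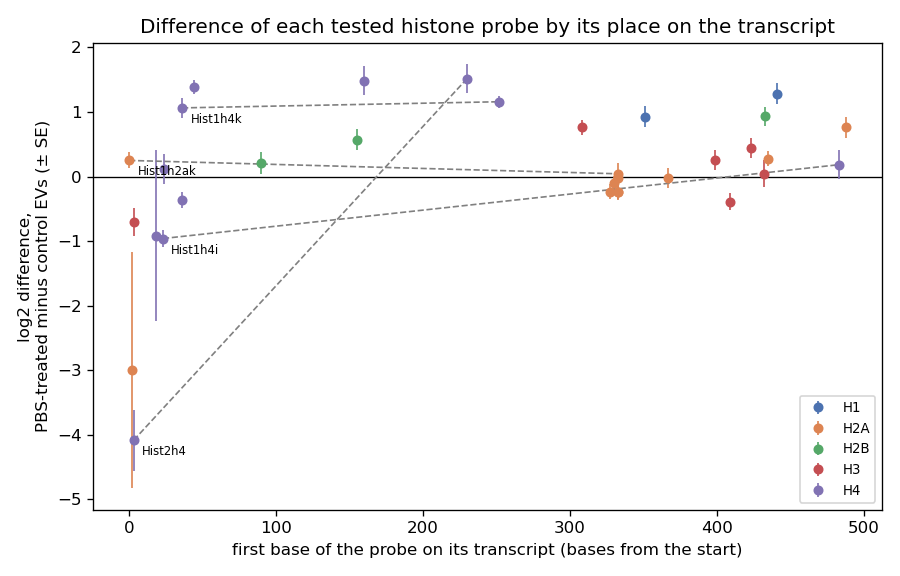
Log2 difference, PBS-treated minus control EVs, with its SE (y axis) against the first base of the probe on its transcript (x axis) for 33 tested histone probes, coloured by type, with dashed lines joining probes of the same gene. Another 6 probes that begin past base 520 are not drawn. The lowest value, -4.08, is the Hist2h4 probe at base 3, a probe detected on only 2 of the 5 PBS-treated arrays.

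By genomic cluster, the Hist1 genes on chromosome 13 held 9 higher and 3 lower genes of 26 tested, and the Hist2 genes on chromosome 3 held 4 higher and none lower of 7 tested, with medians of 0.15 and 0.76. The Hist1 shares, 34.6% higher and 11.5% lower, stand beside 31.5% and 20.7% over all genes, and the Hist2 share was 57.1% higher. In Hist2, 3 genes did not pass the test. The single tested gene of Hist3, Hist3h2a, differed by 0.26 and was not called.

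Promoters were looked at for what the members share beyond their names. RefSeq promoters (250 bases before the start, GRCm38.p6) were found for 41 of 48 genes, 42 promoters in all. CCAAT, on either strand, lay in 83.3% of them, against 33.8% of all 32851 promoters, and TATAAA, on either strand, in 21 of the 42, against 12.4% of all. All 6 H1 and 14 H2A promoters held CCAAT, and 2 of 7 H4 promoters did. Among genes that were higher, 9 of 12 promoters held CCAAT and 7 of 12 TATAAA. Among genes not called, 13 of 17 held CCAAT and 5 of 17 TATAAA. The 120 bases before the start of the H1 and H4 genes of smallest p are shown, with both motifs in capitals.
Hist1h1c, chr13:23738687-23738806, plus strand: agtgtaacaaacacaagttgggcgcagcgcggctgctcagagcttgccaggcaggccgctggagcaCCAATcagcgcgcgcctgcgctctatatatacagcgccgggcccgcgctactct
Hist1h4d, chr13:23581448-23581567, plus strand: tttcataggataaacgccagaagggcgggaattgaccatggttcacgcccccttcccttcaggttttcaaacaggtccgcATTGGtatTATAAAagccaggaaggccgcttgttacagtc

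Of 25 tested genes listed under histone mRNA processing and decay, 16 were higher (64.0%) and 2 lower, with a median of 1.04. Over all genes 31.5% were higher and 20.7% lower. The list also holds genes with other roles, among them Ccne1 and Cpsf3l. With normexp background correction 6 of the 25 were higher and 5 lower, with a median of 0.15. Of all genes 13.2% were then higher and 32.6% lower, with a median of -0.51. Slbp, which encodes the stem-loop binding protein, was well above background on all 5 PBS-treated arrays and on none of the 4 control arrays. Its difference as measured was 0.76 (adjusted p = 0.00675, limma). By the bound for dim probes, Slbp was at least 1.16-fold higher in PBS-treated EVs, and this bound carries no test. With normexp background correction its difference was -0.51 (adjusted p = 0.0936). Ccne1, the cyclin that drives S phase entry, read -1.52, -1.44, -1.61, -1.51 and -1.53 in PBS-treated EVs, against -4.07, -4.30, -4.38 and -5.46 in control EVs, and rose by 3.03. Only 2 of the 4 control arrays read Ccne1 well above background, so the size of this difference rests in part on dim readings. With normexp it was 1.42 (adjusted p = 0.000357, limma). Eri1, an exonuclease that trims histone mRNA ends, was on no control array above background and was at least 2.25-fold higher, though its difference was 0.07 with normexp. Cpsf3l, a subunit of the Integrator complex, rose by 1.34, but with normexp it was 0.41 (adjusted p = 0.0563, limma).

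The other gene groups around the histones differed in their counts. The genes listed as replication-independent histones are mostly expressed without being confined to S phase, and most of their mRNAs are polyadenylated. Of 11 tested, 4 were higher and 3 lower (36.4% and 27.3%, against 31.5% and 20.7% over all genes). Their median was -0.25, and it was positive with spike-in scaling. H3f3b, one of the genes of histone H3.3, rose by 1.89, H2afx, whose protein is phosphorylated at DNA breaks, by 1.16, and H2afz, the H2A.Z gene, by 0.70. Histone chaperones were higher for 8 and lower for 3 of 19 tested (42.1% and 15.8%). Rbbp7 and Asf1b, which carry H3 and H4, rose by 1.64 and 2.50, whereas Chaf1a, the large subunit of chromatin assembly factor 1, fell by 1.67. S phase genes were higher for 16 and lower for none of 20 tested, with a median of 1.53, and for 11 and none with normexp. Among them Tk1, thymidine kinase, rose by 1.79, Mcm4, a helicase subunit, by 2.75 and Pcna, the polymerase clamp, by 2.87. In bulk EV RNA, a change in the RNA content of each vesicle cannot be told apart from a change in which vesicles or cells contributed.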

How the data were processed

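RNA of PBS-treated EVs (5 arrays) and control EVs (4 arrays) was measured on arrays of 62976 spots. The authors deposited scanner files with linear intensity per spot (background-corrected signal, mean signal and local background, made by Feature Extraction 10.7.3.1, as named in the file headers), other columns with detection marks, and a log2 value table of the same arrays for which no normalization is stated in the sources used. Non-uniform spots were set missing, spots of a probe averaged, and 55681 probes kept. Log2 signals were set relative to the 75th percentile of the 8422 probes that every array detected (marked well above background). Probes well above background on at least 4 arrays entered, 1 per gene with the highest mean (14307 genes). Groups were compared with limma 3.58.1 (R 4.3.3, lmFit and eBayes, two-sided, Benjamini-Hochberg, threshold 0.05). The fit was tested on simulated data. The number of arrays limits the precision.

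The arrays lay on 2 slides, each holding both groups. The fit held no slide term, and slide as a block and each slide alone were alternatives. Probe coordinates are mm9. Sequences come from the array annotation and RefSeq (GRCm38.p6), which matched 46 of 48 genes. Named genes were, per histone type, the 3 of smallest p and the one of highest mean, the 3 of smallest p in each other list, and Slbp. The members and lists were chosen with earlier results of these data known. Alternatives covered scaling, background correction, the value table, filters, probe choice, slide, a replicate block, array weights, the methods' t-test and leaving out arrays. The normexp background correction was run with an offset of 50 added to the corrected signal. Its differences therefore reflect the correction and the offset together, above all for dim probes. Folds written as "at least" set the mean of the brighter group against the higher of the dim probe's signal and the lowest signal well above background per array.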

Additional observations from a re-analysis of the deposited data

Results flagged for a closer look

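Of 96 groups of arrays checked (the 35 tested histone genes and 13 other named genes, in PBS-treated and in control EVs), 7 held an array far from the others by Dixon's test, a test that chance passes in about 1 of 20 groups. In PBS-treated EVs the array concerned was replicate 3 each time. It read 5.32 for Hist1h2ag, above the 4.91 of the next array, -0.25 for Hist1h2bm, above -0.78, and -2.73 for Hist1h4i, below -1.84. In control EVs replicate 4 read -4.08 for Hist1h1a, below -3.62, and -2.47 for H2afx, below -2.02. Control replicate 3 read 4.32 for Hist1h2ak, below 4.95, and control replicate 1 read -0.67 for Rbbp7, above -0.77. Hist1h1a, H2afx and Rbbp7 were called, and the other 4 were not.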

How the results depend on the processing

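Against 14 histone genes higher in PBS-treated EVs, spike-in scaling gave 31, all 14 among them, and the other alternatives gave 11 to 18 (15 with the methods' t-test, both unadjusted and after Benjamini-Hochberg). The lower calls were less stable. Against 3 lower genes, there were 0 with the percentile over all probes, with spike-in scaling and without both control arrays of slide 2 (added after seeing the data), 1 with quantile normalization and with the value table, 5 with slide as a block, with array weights and with the methods' t-test after Benjamini-Hochberg, and 6 with that test unadjusted. Leaving out single arrays gave 13 to 14 higher and 0 to 2 lower histone genes and medians of 0.19 to 0.29. The median of 0.25 was 0.66 with the percentile over all probes, 1.50 with spike-in scaling and -0.023 with no filter on dim probes, which adds 13 dim members. The medians of all genes in these settings were 0.39, 1.23 and -1.11, against -0.02 in the main fit. With the 7 alike H2A probes counted as 1 gene, also added later, the histone median was 0.28. Over all genes, 4508 were higher and 2959 lower. Higher counts were 8846 with spike-in scaling, 1891 with normexp and 2374 with probes well above background on all arrays. Lower counts were 1351 with the percentile over all probes, 747 with spike-in scaling, 4669 with normexp, 1888 with the value table, 5265 with no filter, 4905 with slide as a block and 4484 on slide 1 alone. Leaving out single arrays gave 4066 to 4518 higher and 2581 to 2917 lower. The cause was not tested.

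Among the 30 named genes, 6 changed sign where a call was involved. Spike-in scaling shifts every gene up by the same amount. Hist1h2an was 1.01 and Hist1h2ah 1.02 with spike-in scaling, and Hist1h2ah 0.63 with the value table. Hist1h3c was 0.55 with spike-in scaling. Hist2h3c2-ps was -0.40 and Slbp -0.51 with normexp, where the median of all genes was -0.51. Hist2h4 was -1.28 with the mean of its probes and -4.08 with its next brightest probe, a probe detected on only 2 of the 5 PBS-treated arrays. The main fit did not pair samples by the replicate numbers in the labels. Deviations of same-numbered arrays correlated at 0.70, 0.73 and 0.74 on a shared slide and at -0.54 for number 3, which crossed slides. Pairing by number cannot be told apart from a shared slide in these values. With the replicate block, 13 histone genes were higher and 2 lower, and 4079 and 3358 of all genes. Dim probes (Hist2h3c2-ps, Slbp, Eri1 and the earlier Hist2h4 probe) have less signal over background and less reliable differences.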
